A study of Homo sapiens with 6 samples.

Results

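Inflammatory cytokine and chemokine messages were examined as a set of 10 genes: the interleukin and LIF genes IL6, IL11, LIF, IL1A and IL1B, the chemokine genes CXCL1, CXCL2, CXCL8 and CCL20, and TNFAIP3, a feedback inhibitor of the pathway that induces them. They were chosen by name, and all 10 were found among the 58825 genes of the deposited table. RNA came from PC9, an established human lung adenocarcinoma cell line with an activating EGFR mutation. Per the labels, every library came from cells that overexpressed FOXM1, which drives genes of mitosis, and that had received 100 nM gefitinib, an EGFR inhibitor, for 24 h. The groups differ in the allele of FOXM1 that was expressed, rs3742076 A in 3 libraries and rs3742076 G in 3 libraries. Since every library shares the overexpression and the drug, the effect of neither could be measured. The question put to the 10 genes is that of the series' design, G against A.

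Cytokines of this kind are secreted signals of injury and infection. Their genes are switched on by NF-kB, a family of paired transcription factors held in the cytoplasm by IkB proteins until a receptor for IL-1, TNF or a microbial product triggers the IkB kinase, and by AP-1 and C/EBP factors at neighbouring sites. The chemokines CXCL1, CXCL2 and CXCL8 draw in neutrophils through CXCR1 and CXCR2, IL-6, IL-11 and LIF signal through the shared receptor chain gp130 to STAT3, and TNFAIP3 encodes A20, a ubiquitin-editing enzyme that shuts NF-kB signalling off again. Epithelial tumour cells of the lung can make several of these proteins themselves.

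Their promoters are shown first, since NF-kB and AP-1 act through short words of sequence that can be looked for there. The RefSeq promoter table (GRCh38.p14) held 9 of the 10 genes, all but LIF, and the 250 bases upstream of each start were searched on both strands. The kappaB consensus, the 10-base NF-kB binding word, was found upstream of 5 of these genes, against 5.2% of 34943 windows of that length. The word GGAATTTCC, which lies inside the kappaB match of CXCL1 and CXCL2 and stands alone in CXCL8, was found upstream of 3, against 0.415% of windows. The AP-1 word TGACTCA was found upstream of 3 (CXCL8, IL11 and IL1A), against 4.22%. These are counts of genes beside shares of windows, and the 9 genes had 10 windows. By window, 5, 3 and 4 of the 10 held the kappaB consensus, GGAATTTCC and TGACTCA, the last because windows of IL1A overlap. The matches describe letters in these windows and no binding was measured. Each line below gives the gene's own strand, 5′ to 3′, with kappaB matches or GGAATTTCC in capitals for all but IL11, whose capitals mark the reverse complement of TGACTCA.
CXCL1, chr4:73869294-73869344, plus strand: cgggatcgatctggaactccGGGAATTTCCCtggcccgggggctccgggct
CXCL2, chr4:74099243-74099293, minus strand: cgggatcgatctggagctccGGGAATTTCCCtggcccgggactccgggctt
CXCL8, chr4:73740458-73740506, plus strand: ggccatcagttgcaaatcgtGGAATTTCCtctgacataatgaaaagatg
IL6, chr7:22727107-22727156, plus strand: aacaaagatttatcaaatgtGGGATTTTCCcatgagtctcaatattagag
CCL20, chr2:227813743-227813792, plus strand: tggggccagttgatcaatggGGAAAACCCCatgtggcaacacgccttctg
TNFAIP3, chr6:137867172-137867233, plus strand: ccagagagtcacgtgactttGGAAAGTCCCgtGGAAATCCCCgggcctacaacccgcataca
IL11, chr19:55370533-55370579, minus strand: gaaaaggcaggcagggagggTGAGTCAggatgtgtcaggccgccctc
CXCL1 and CXCL2 carry the same 11-base word in nearly the same surroundings, and its nearest base lies 69 bases before the start in CXCL1 and 68 in CXCL2. Over the whole 250-base windows they were identical in 68.0% of aligned columns. In CXCL8 the nearest base of the word lies 83 bases before the start.

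None of the 10 genes differed between the alleles by the test. Levels are FPKM, fragments per kilobase of transcript scaled to the fragments of the library, and changes are G minus A on the scale log2(FPKM + 1), which understates changes of low genes. Only 4 of the 10, TNFAIP3, LIF, CXCL8 and IL11, reached 1 FPKM in at least 3 libraries and were tested. Of these 4, 0 were called higher and 0 lower by limma with an adjusted p under 0.05 over 12787 genes, and 0 had an unadjusted p under 0.05. Over all tested genes 0.109% were called. In the fit without a filter on low values, which called 0.00325% of 30736 genes, 0 of the 10 were called. Of their 48 transcripts 3 were tested and 0 called, beside 0.147% of all tested transcripts. The groups overlapped for all 10 genes, where 24.9% of tested genes had groups that did not overlap. The median log2 change of the 4 was 0.05, beside 0.02 for all tested genes, and it ran from -0.003 without A replicate 3 to 0.11 without A replicate 1.

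**Figure D1:**
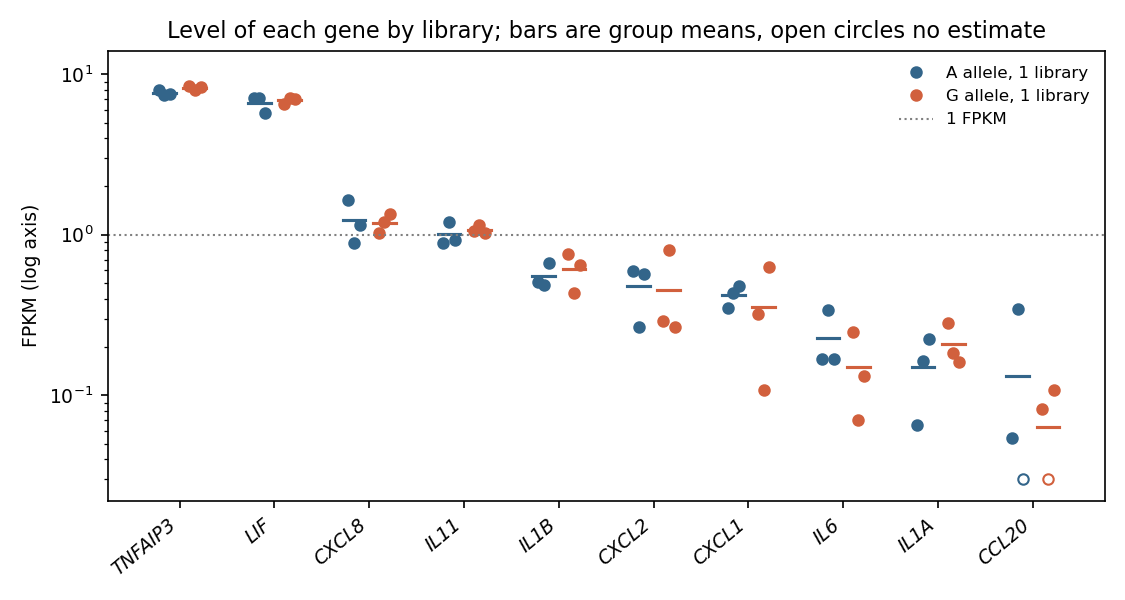
FPKM on a log axis for each of the 10 genes (x axis, ordered by mean), with 1 point per library, blue for the A allele and orange for the G allele. Bars are group means, the dotted line is 1 FPKM, and the open circles of CCL20 are libraries listed with no estimate; the ranges of A and G overlap in every gene.

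The libraries held 19765200 to 23289014 read-pair equivalents, estimated from the commonest spacing of low FPKM values among single-exon genes. In bulk RNA, fewer cells that make a message and less message per cell cannot be told apart. Of the markers of other cell types, PTPRC, the pan-leukocyte gene, was at most 0.038 FPKM and the B cell gene MS4A1 was listed with no estimate in every library. CD68 and CSF1R stood out in the leukocyte list, with CD68 at 35.9 to 48.7 FPKM and CSF1R at 6.19 to 8.54 FPKM. The summed leukocyte list was 45.7 to 53.2 FPKM in A and 46.3 to 59.0 FPKM in G, the endothelial list at most 0.673 FPKM and the fibroblast list at most 2.40 FPKM. Epithelial markers were high, at a sum of 2792 to 3435 FPKM in A and 2682 to 2865 FPKM in G. Of the 7, 3 had a positive and 4 a negative change. By limma 2 had an unadjusted p under 0.05 and 0 were called. The median log2 change of the 7 was -0.08. The mean of EPCAM, 1 of the 7 markers, was 114.6 FPKM for A against 114.8 FPKM for G. The lung lineage markers were near absent, at a sum of at most 0.912 FPKM. FOXM1 itself was at 25.5, 10.5 and 10.1 FPKM in A replicates 1 to 3 and at 14.6, 14.3 and 13.96 FPKM in G. A replicate 1 stands apart there, and FOXM1 values cannot check which allele a library carries.

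TNFAIP3 (ENSG00000118503, chromosome 6, 137867214 to 137883312, plus strand, GRCh38) was the most abundant of the 10. It was at 7.98, 7.41 and 7.53 FPKM in A replicates 1 to 3 and at 8.47, 7.97 and 8.31 FPKM in G replicates 1 to 3. Only A replicate 1 reached into the range of the G libraries, just above G replicate 2. The means were 7.64 ± 0.30 FPKM in A and 8.25 ± 0.26 FPKM in G (SD, n = 3 each). The log2 change was 0.10, 95% interval -0.04 to 0.24 (limma adjusted p = 0.43). An exact permutation test, two-sided, returned p = 0.2, and its smallest possible value with 3 libraries a group is 0.1.

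Within TNFAIP3 the signal assigned to 2 transcripts was exchanged in 1 library, A replicate 3, whose gene value lay within the range of the others. In 5 libraries most of the gene's signal was assigned to ENST00000620204, at 7.39 to 9.03 FPKM, and little to ENST00000615468, at 0.567 to 0.886 FPKM. In A replicate 3 the assignment was the other way round, with 0.374 FPKM of ENST00000620204 and 8.04 FPKM of ENST00000615468. Both have the same start, end, exon number (8) and length (3819 bases) in the deposited table, so what separated their reads cannot be seen there. In GENCODE release 29 they share 3816 bases and differ only by gaps of 1 and 2 bases. Each has 9 exons there, with 3818 bases in ENST00000615468 and 3817 bases in ENST00000620204. The deposited exon number and length are those of neither, so the deposited models need not hold these gaps. In that release ENST00000615468 skips chromosome 6 position 137875721, and ENST00000620204 skips positions 137879324 to 137879325. The skipped bases are in capitals in the model that keeps them, on the plus strand.
ENST00000620204, chr6:137875701-137875741: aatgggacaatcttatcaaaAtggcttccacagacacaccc
ENST00000615468, the same stretch: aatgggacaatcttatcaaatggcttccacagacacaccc
ENST00000615468, chr6:137879304-137879345: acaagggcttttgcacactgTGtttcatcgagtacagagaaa
ENST00000620204, the same stretch: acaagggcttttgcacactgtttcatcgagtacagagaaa
The annotated coding length is 642 bases in ENST00000615468 and 2007 bases in ENST00000620204. Whether A replicate 3 held a different message was not tested. Summed, the models gave 9.04, 8.12 and 8.42 FPKM in A and 9.49, 8.81 and 9.66 FPKM in G, with a log2 change of 0.12 (exact two-sided permutation p = 0.2, a sum chosen after seeing the data). ENST00000620204 alone had a log2 change of 1.00, 95% interval -0.93 to 2.94 (limma adjusted p = 0.77 over 29990 transcripts), and A replicate 3 is the library that stands apart in it. The 2 models held 83.3% to 88.4% of the read-pair equivalents of TNFAIP3. They begin at 137871211, downstream of the RefSeq start used for the promoter window.

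**Figure D2:**
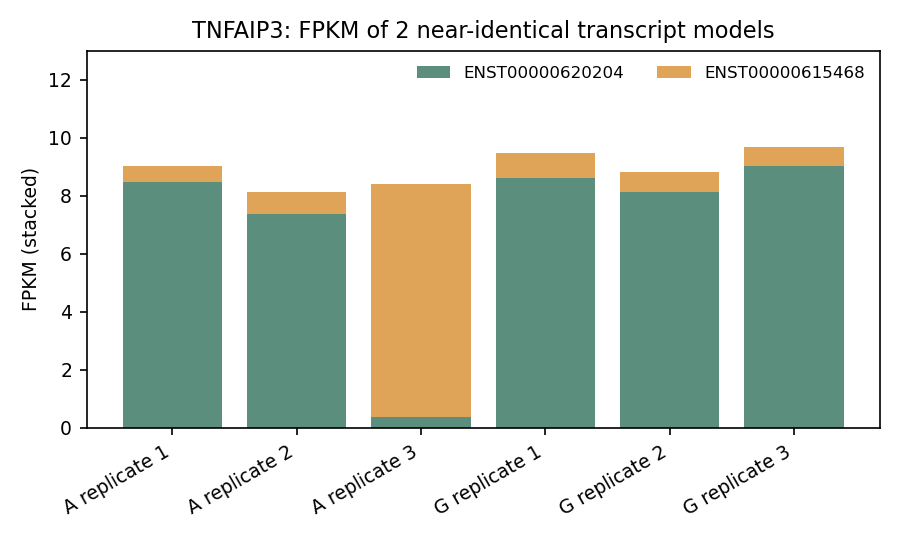
Stacked FPKM of 2 TNFAIP3 transcript models in each library (x axis: A and G replicates 1 to 3). Green is ENST00000620204 and orange ENST00000615468; A replicate 3 has the colours exchanged at a sum of 8.42 FPKM, within the range of 8.12 to 9.66 FPKM of the other libraries.

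The genes of the IL-6 family differ widely in level. LIF (ENSG00000128342, chromosome 22, 30240453 to 30246759, minus strand), whose product keeps mouse embryonic stem cells undifferentiated and signals through LIFR and gp130, was at 7.13, 7.10 and 5.72 FPKM in A and at 6.48, 7.12 and 6.996 FPKM in G. A replicate 3 was the lowest library and A replicate 1 the highest, so the A libraries enclosed the G libraries. The log2 change was 0.04, 95% interval -0.18 to 0.27 (limma adjusted p = 0.83). All of its signal was assigned to ENST00000249075, and its other transcript had no estimate in any library.

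IL11 (ENSG00000095752, chromosome 19, 55364382 to 55370463, minus strand), a cytokine of stromal and epithelial repair, was at 0.887, 1.20 and 0.931 FPKM in A and at 1.06, 1.14 and 1.02 FPKM in G. Again the A libraries spanned the whole G range. IL11 reached 1 FPKM in every G library but in A only in replicate 2, so it passed the filter mainly through G. The log2 change was 0.05, 95% interval -0.18 to 0.28 (limma adjusted p = 0.81). Its signal moved between models from library to library, with ENST00000585513 at 1.28 FPKM in G replicate 2 and at most 0.199 FPKM elsewhere.

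IL6 (ENSG00000136244, chromosome 7, 22725884 to 22732002, plus strand), the founding member of the family, was far lower. It was at 0.168, 0.341 and 0.168 FPKM in A and at 0.247, 0.0704 and 0.131 FPKM in G. These values stand for 2.9 to 16.1 read-pair equivalents per library, 30.5 in all of A and 20.2 in all of G. No difference was detectable at this depth, and in the fit without a filter on low values the log2 change was -0.09, 95% interval -0.30 to 0.11 (limma adjusted p = 0.71).

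CXCL8 (ENSG00000169429, chromosome 4, 73740541 to 73743716, plus strand), which encodes interleukin-8, had the highest level of the 4 chemokine genes in the set. It was at 1.65, 0.882 and 1.15 FPKM in A and at 1.03, 1.19 and 1.34 FPKM in G. The highest and the lowest library both belonged to A. The log2 change was -0.01, 95% interval -0.36 to 0.33 (limma adjusted p = 0.97). Without A replicate 1, the library with the highest CXCL8 and the highest FOXM1, the log2 change was 0.12, and the part of FOXM1 in this was not tested.

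CXCL1 (ENSG00000163739, chromosome 4, 73869393 to 73871242, plus strand) and CXCL2 (ENSG00000081041, chromosome 4, 74097040 to 74099196, minus strand) are paralogs with closely related products. CXCL1 was at 0.348, 0.434 and 0.476 FPKM in A and at 0.323, 0.109 and 0.631 FPKM in G. CXCL2 was at 0.593, 0.266 and 0.569 FPKM in A and at 0.289, 0.803 and 0.268 FPKM in G. G replicate 2 was the lowest library for CXCL1 and the highest for CXCL2. Their main transcripts were identical in 80.1% of aligned columns, and 5.73% of the 50-base words of CXCL1 and 9.24% of those of CXCL2 occurred in a paralog's or CXCL8's transcript, but 0 words of 100 bases did. Reads that fall wholly in such words could have been split between them, so their separate values are uncertain to that extent. The log2 changes were -0.08 (95% interval -0.45 to 0.28) for CXCL1 and -0.03 (-0.47 to 0.40) for CXCL2 in the fit without a filter, with limma adjusted p = 0.83 and 0.95. CXCL3, the third paralog of this cluster, was at most 0.0919 FPKM, and CXCL5 and CXCL6, relatives that use the same receptors, were listed with no estimate in every library.

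CCL20 (ENSG00000115009, chromosome 2, 227805739 to 227817564, plus strand), which attracts lymphocytes and dendritic cells through CCR6, had the lowest mean. It was at 0.0545 and 0.343 FPKM in A replicates 1 and 2 and at 0.0816 and 0.108 FPKM in G replicates 1 and 3, and had no estimate in A replicate 3 and G replicate 2. A count of 0 allows up to 3 read pairs, which is 0.0952 and 0.0932 FPKM in these libraries and covers counting error only. A replicate 2 alone held 12.5 of the 14.4 read-pair equivalents of the A group, and the G group held 6.8. The log2 change was -0.08 with all libraries and 0.05 without A replicate 2.

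The interleukin-1 genes encode fever-inducing cytokines that are made as precursors. IL1B (ENSG00000125538, chromosome 2, 112829751 to 112836903, minus strand) was at 0.505, 0.483 and 0.667 FPKM in A and at 0.756, 0.433 and 0.648 FPKM in G. G replicates 1 and 2 were the highest and the lowest of the 6 libraries. In the fit without a filter the log2 change was 0.05, 95% interval -0.22 to 0.32 (limma adjusted p = 0.86). Part of the G replicate 1 value was assigned to ENST00000487639, a retained-intron transcript at 1.25 FPKM there. It was at 0.312 and 0.0978 FPKM in G replicates 2 and 3 and at 0.0117 to 0.0363 FPKM in A. This transcript lay below the filter and was not tested. The main transcript ENST00000263341 was at 0.875 FPKM in G replicate 1 and at 0.697 to 1.21 FPKM in the others.

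IL1A (ENSG00000115008, chromosome 2, 112773915 to 112784590, minus strand) was at 0.0655, 0.163 and 0.224 FPKM in A and at 0.282, 0.184 and 0.161 FPKM in G. A replicate 1 was the lowest library and G replicate 1 the highest, with 3.0 and 12.9 read-pair equivalents. The log2 change was 0.07, 95% interval -0.10 to 0.24 (limma adjusted p = 0.71, fit without a filter).

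**Figure D3:**
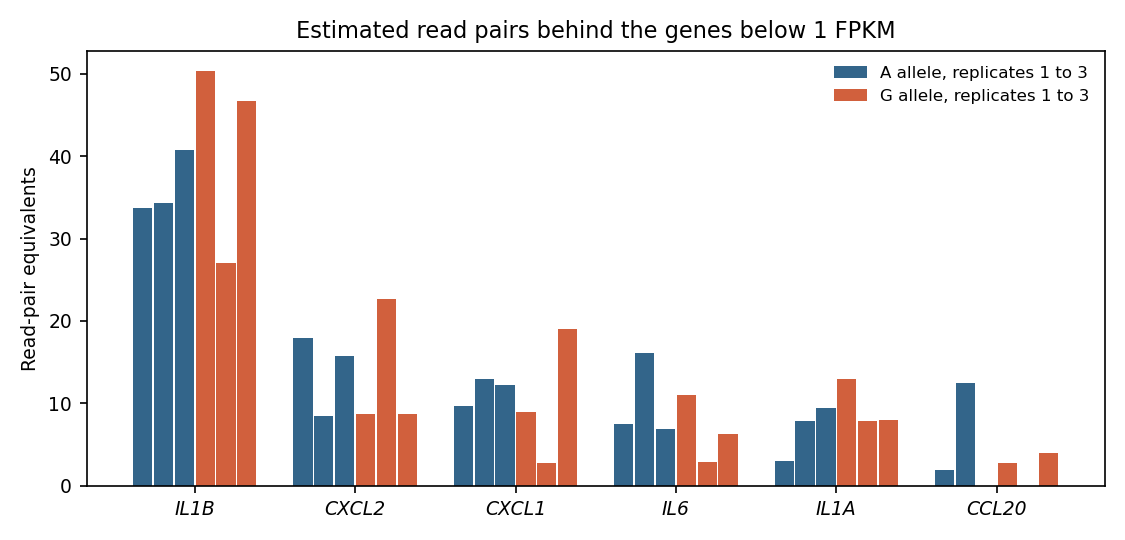
Estimated read pairs behind the 6 genes below 1 FPKM (x axis), with 1 bar per library, blue for A replicates 1 to 3 and orange for G replicates 1 to 3. CCL20, IL6 and CXCL1 have libraries with 0 to 2.9 read-pair equivalents, and IL1B is the highest of the 6 at 27.1 to 50.3.

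Across the set the order by mean FPKM was TNFAIP3, LIF, CXCL8, IL11, IL1B, CXCL2, CXCL1, IL6, IL1A and CCL20. The lowest TNFAIP3 library, 7.41 FPKM, lay above the highest LIF library, 7.13 FPKM. LIF and CXCL8 were also separate in all 6 libraries, as were IL11 and IL1B. The other neighbours overlapped, and CXCL2 was above CXCL1 in 3 of 6 libraries. The order holds for gene values, which divide by a fixed length, 2678 bases for IL11 and 3096 bases for IL1B. By single transcripts IL1B was the higher of these. ENST00000263341 of IL1B had means of 1.01 and 0.893 FPKM in A and G, and ENST00000264563 of IL11 had 0.948 and 0.810 FPKM. At the upper end, 92.0% of the genes in the table had a lower mean than TNFAIP3, but 28089 of the 58825 had no estimate in any library. The 10 genes summed to 17.4 to 19.4 FPKM in A and 19.02 to 19.6 FPKM in G, of which TNFAIP3 and LIF made up most. The FPKM of all genes summed to 270219 to 277596 in A and 253706 to 255269 in G, so the library totals differ with the allele. As a share of these totals the 10 genes held 0.00632% to 0.00717% in A and 0.00746% to 0.00769% in G, without overlap. Raw sums and shares thus differ in whether the groups overlap, and the cause of the differing totals was not tested.

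On the log2 scale 5 of the 10 changes were positive and 5 negative. The exact permutation test gave p = 0.2 to 1 for the single genes, and p = 1 for each after Benjamini-Hochberg adjustment over the 10. For the 6 genes below 1 FPKM the size of the change depends on the pseudocount: with 0.01 in place of 1 it was -0.64 for IL6, -0.54 for CXCL1, 0.56 for IL1A and -0.36 for CCL20. In the authors' deposited table all 10 genes had a q-value of 1, and their p-values ran from 0.707 for TNFAIP3 to 1.

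**Figure D4:**
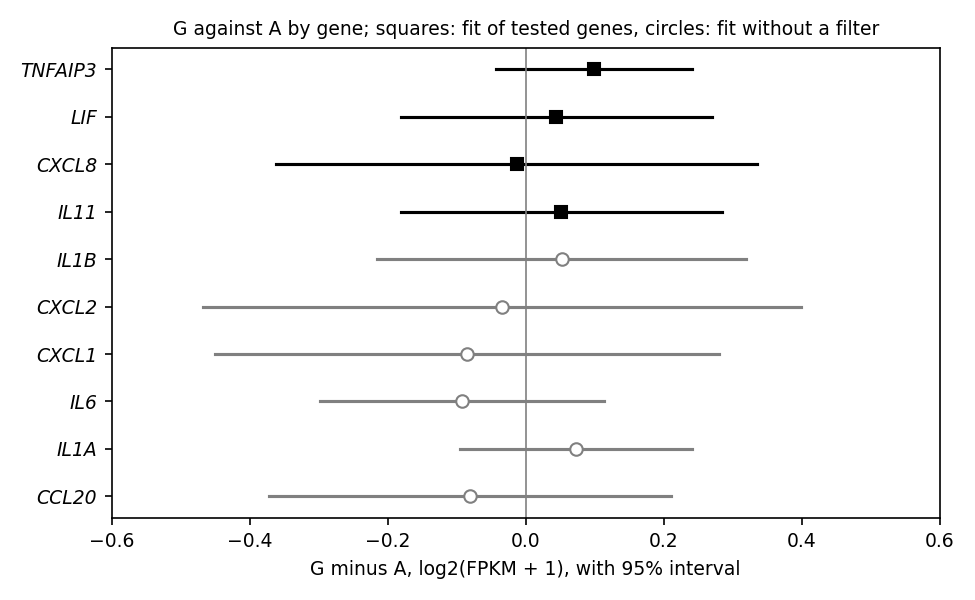
Difference of G minus A on the log2(FPKM + 1) scale (x axis) for each gene, with its 95% interval from limma. Black squares are the 4 genes tested above the filter and open circles the 6 below it, from the fit without a filter; all 10 intervals include 0.

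The genes whose values followed the tested members most closely over the 6 libraries were taken from all tested genes by Pearson correlation, as a description. They were RABGAP1 (r = 0.999) and WDFY3 (0.997) for TNFAIP3, SYNGR3 (0.996) and CPSF4 (0.981) for LIF, RBPJ (0.979) and IL22RA1 (0.971) for CXCL8, and TLE6 (0.999) and MIR4458HG (0.993) for IL11. Of the 12787 tested genes, 649 correlated above 0.9 with TNFAIP3, 78 with LIF, 58 with CXCL8 and 55 with IL11. With 6 libraries such values therefore do not single out a gene.

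Around the 10 genes, 189 genes of the pathway were listed by role, in 9 lists, and 120 of the 187 found were tested. Of these, 0 were called by limma, 24 of the 120 had an unadjusted p under 0.05, beside 17.3% of all tested genes, and 60 had a positive log2 change, beside 55.1% of all tested genes. The smallest adjusted p was 0.075. Most genes named below were picked for the smallest p of their list, which favours groups that do not overlap. Over all 12787 tested genes, 24.9% had groups that did not overlap.

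Upstream of the cytokines, 10 of the 20 listed receptors passed the filter, and 4 were listed with no estimate in all libraries. The interleukin-1 receptor chains were at 6.87 and 7.79 FPKM in A and G for IL1R1 and at 2.72 and 3.25 FPKM for IL1RAP, while the decoy receptor IL1R2 was at 0.158 and 0.208 FPKM. IL6ST, which encodes gp130, was at 11.7, 9.92 and 10.4 FPKM in A and at 12.97, 11.98 and 12.04 FPKM in G. LIFR was at 3.18, 2.39 and 2.90 FPKM in A and at 3.84, 3.72 and 3.88 FPKM in G. In both genes every G library lay above every A library, but neither passed (log2 changes 0.19 and 0.34, limma adjusted p = 0.28 and 0.19). IL6R was at 2.16 and 2.73 FPKM and IL11RA at 2.08 and 1.97 FPKM. The neutrophil chemokine receptors CXCR1 and CXCR2 and the CCL20 receptor CCR6 were listed with no estimate in all libraries. Of the 10 tested receptors 8 had a positive change, with a median of 0.18, and 0 were called. Among them OSMR, the oncostatin M receptor, was at 27.4 and 30.6 FPKM (adjusted p = 0.25).

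Of the adaptors, kinases and ubiquitin enzymes that carry the signal to NF-kB, 32 of 35 were tested, 19 had a positive change and the median was 0.03. IKBKB, the catalytic IkB kinase subunit, was at 2.21, 2.69 and 2.02 FPKM in A and at 2.92, 3.26 and 3.33 FPKM in G (log2 change 0.34, limma adjusted p = 0.20). BIRC3, a ubiquitin ligase and itself an NF-kB target, was at 3.65 and 4.33 FPKM (adjusted p = 0.24), and SHARPIN of the linear ubiquitin complex at 16.8 and 14.8 FPKM (adjusted p = 0.30).

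All 10 NF-kB subunits and inhibitors that were found were tested, 5 with a positive and 5 with a negative change. NFKB2 was at 24.5, 26.5 and 26.4 FPKM in A and at 22.4, 23.7 and 22.1 FPKM in G. Its groups did not overlap, and it did not pass (log2 change -0.17, limma adjusted p = 0.22). REL was at 0.939, 0.641 and 0.726 FPKM in A and at 1.23, 1.33 and 1.07 FPKM in G. It reached 1 FPKM in the 3 G libraries alone and so entered the test only through the group where it is high, and its values are given as a description. It is 1 of the 5 positive changes. RELA, the main activating subunit, was at 17.5 and 18.1 FPKM, NFKB1 at 3.35 and 3.13 FPKM and RELB at 5.80 and 5.33 FPKM. NFKBIA, the IkB inhibitor that NF-kB itself induces, was at 44.3 and 46.2 FPKM (adjusted p = 0.74). NFKBIB was at 9.66 and 9.54 FPKM, NFKBIE at 4.84 and 5.41 FPKM, NFKBIZ at 4.12 and 5.08 FPKM (adjusted p = 0.41) and BCL3 at 17.6 and 16.8 FPKM.

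Of the other NF-kB targets 21 were tested and 0 called, with 9 of the 21 changes positive and a median of -0.03. PLAU, the urokinase gene, was at 21.5, 22.4 and 21.5 FPKM in A and at 16.97, 17.2 and 18.2 FPKM in G (log2 change -0.31, limma adjusted p = 0.15). Complement C3 was at 41.9 and 49.1 FPKM (0.23, adjusted p = 0.18) and the zinc finger gene KLF6 at 3.19 and 3.81 FPKM (adjusted p = 0.32). Each C3 library of G lay above those of A and each PLAU library below. Both were picked by p, and 24.9% of all tested genes had groups that did not overlap.

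Of 46 other cytokine and chemokine genes 11 were tested, 15 were listed with no estimate in all libraries, and 1 of the 11 had a positive change, with a median of -0.14. MIF, an abundant cytokine and tautomerase, was at 343, 441 and 412 FPKM in A and at 280, 349 and 293 FPKM in G, with overlapping groups. CSF1, the macrophage growth factor, was at 3.17, 3.00 and 2.91 FPKM in A and at 1.07, 1.93 and 2.17 FPKM in G, and CXCL16, a membrane-bound chemokine, at 32.9 and 27.96 FPKM. None of these 3 passed (limma adjusted p = 0.22, 0.20 and 0.19).

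The factors that act beside NF-kB at these promoters held the smallest p of the 9 lists. CEBPD, a C/EBP factor of the acute phase response, was at 3.51, 4.17 and 3.91 FPKM in A and at 2.03, 2.18 and 1.93 FPKM in G. The groups were far apart, with a log2 change of -0.67, 95% interval -0.87 to -0.48, but the limma adjusted p was 0.075, and it was called only in the fit with library weights (adjusted p = 0.043), where 17 alternatives ran from 0.043 to 0.26. JUNB was at 89.4 and 73.5 FPKM (adjusted p = 0.24) and CEBPA at 18.8 and 15.7 FPKM (adjusted p = 0.26). Of the 8 factors 3 had a positive change.

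Regulators of cytokine mRNA decay were also listed, because the messages of these cytokines are short-lived. ZFP36, which encodes tristetraprolin and destabilises AU-rich messages, was at 17.4, 15.7 and 15.6 FPKM in A and at 14.6, 13.4 and 11.6 FPKM in G (log2 change -0.28, limma adjusted p = 0.23). Its paralog ZFP36L2 was at 11.3 and 9.22 FPKM (-0.26, adjusted p = 0.18) and RC3H2, a roquin, at 2.78 and 3.24 FPKM (adjusted p = 0.32). Every G library lay below every A library for ZFP36 and ZFP36L2, and 4 of the 13 tested regulators had a positive change, with a median of -0.02.

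In the IL-6 family's JAK-STAT3 arm 6 of 8 tested genes had a positive change (median 0.07). CISH, a feedback inhibitor of cytokine receptors, was at 2.32 and 1.47 FPKM (log2 change -0.46, limma adjusted p = 0.28), the phosphatase gene PTPN11 at 20.03 and 22.1 FPKM (adjusted p = 0.39) and the kinase gene TYK2 at 7.18 and 8.15 FPKM (adjusted p = 0.45). Of the genes of IL-1 processing and the inflammasome 7 of 14 were tested (median 0.02). GSDME, a pore-forming gasdermin, was at 0.921, 0.589 and 0.856 FPKM in A and at 1.17, 1.24 and 1.23 FPKM in G. Like REL it entered the test only through the G libraries, so it is given as a description. Both genes remain in the counts over the 120 tested genes and in the medians of their lists. PYCARD, the inflammasome adaptor, was at 15.4 and 13.2 FPKM (adjusted p = 0.24) and the protease gene CAPN1 at 88.0 and 83.1 FPKM (adjusted p = 0.49).

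The medians of these lists move with the scaling. With equal sums per library the median of all tested genes was 0.11 instead of 0.02, and the medians of the other NF-kB targets (0.07) and the decay regulators (0.08) turned positive. Quantile normalization turned the same lists (0.05 and 0.005), and median-ratio factors turned the NF-kB subunits (-0.01) and the IL-1 processing genes (-0.003). Under these scalings the receptors kept a positive median, from 0.16 to 0.27, and the other cytokines a negative median, from -0.18 to -0.05. The remaining lists also kept their sign. The C/EBP and AP-1 factors ran from -0.22 to -0.09, the JAK-STAT3 arm from 0.04 to 0.17 and the adaptors from 0.01 to 0.13.

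**Figure D5:**
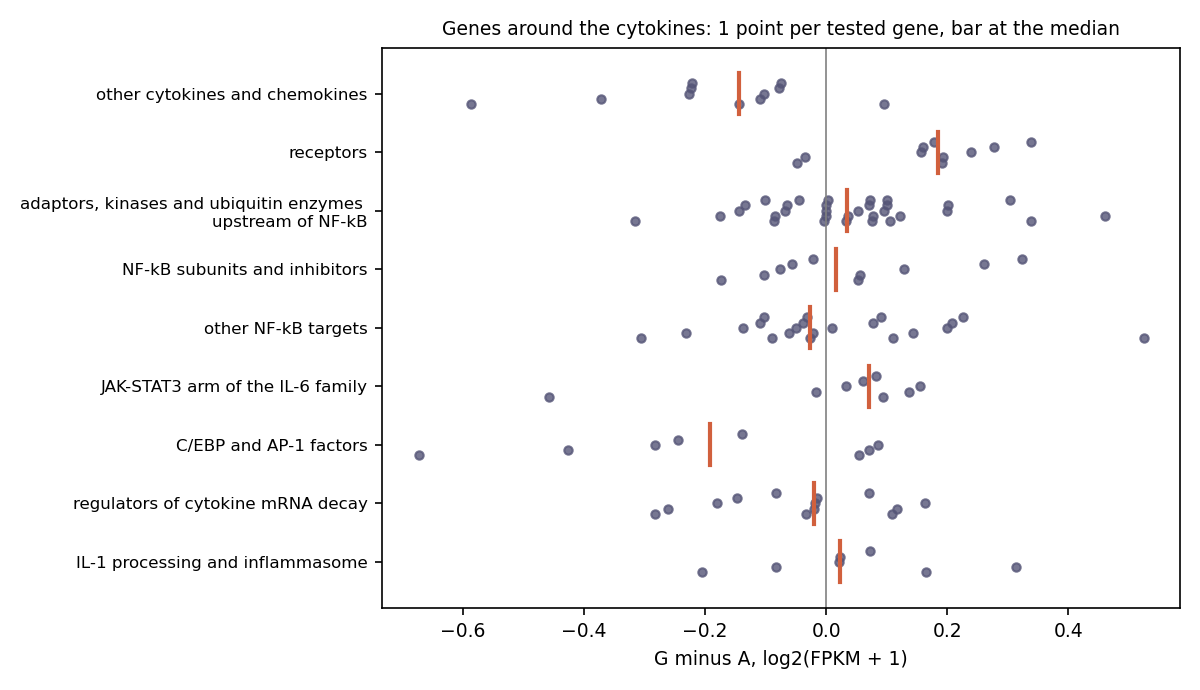
Difference of G minus A on the log2(FPKM + 1) scale (x axis) for the tested genes of 9 lists around the cytokines (y axis), with 1 point per gene and an orange bar at the median. The list medians run from -0.19 for the C/EBP and AP-1 factors to 0.18 for the receptors, and no point was called by limma.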

How the data were processed

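The authors' tables give FPKM for 58825 genes and 208460 transcripts, per the file headers, in 6 poly(A) RNA libraries. The deposited tables also list a ratio (fold), a log2 fold, a p-value, and a q-value; the log2 fold was the log2 ratio of the group means in all 58825 genes. Per the submitters' processing notes, cutadapt 1.9, HISAT2 2.0.4 and StringTie 1.3.4d were used; the notes name a mouse build, but the features are human, and 94.6% of 206348 transcripts had their GENCODE release 29 position on GRCh38. How strands were counted, and by which test, is not given in the sources used here, so a gene and its antisense partner cannot be told apart. The members and lists were chosen with earlier results of these data known.

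A value of 0.0001 stands for no estimate. Genes reaching 1 FPKM in 3 or more libraries were fitted as log2(FPKM + 1) with limma 3.58.1 (intensity trend, R 4.3.3), with Benjamini-Hochberg adjustment over 12787 genes; transcripts likewise over 29990. The fit was tested on simulated data, normal noise with the variances of the fit itself. Such data cannot probe low values, library scaling or pairing. Python 3.11.15 (pandas 2.3.3) read the tables. A gene's FPKM was the length-weighted sum of its transcripts over a fixed length, from which read-pair equivalents were taken; of the low values of single-exon genes 25.4% to 28.1% were whole within 0.02 read pairs, so no count model was used.

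Named are the 10 genes, FOXM1, in each list the 3 tested genes with the smallest p, the NF-kB subunits and inhibitors, the receptors of the 10 genes' products, CXCL3, CXCL5 and CXCL6, and the 2 genes most correlated with each tested member. A symbol found more than once was read from its most expressed gene. 3 of the 10 genes overlap genes on the opposite strand, of which the highest was at 0.474 FPKM. The labels do not say whether replicates were separate cultures, so p-values may measure only technical spread.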

Additional observations from a re-analysis of the deposited data

How the results depend on the processing

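The count of members called was 0 under all 17 alternatives, and 0 member transcripts were called under 15. The log2 change of TNFAIP3 stayed positive in 18 alternatives, 0.07 to 0.195, with a lowest limma adjusted p of 0.137, at equal sums per library, where 1 member, TNFAIP3, had an unadjusted p under 0.05. Near 0, signs turned: CXCL8 was 0.0446 with equal sums per library and 0.0444 with library weights, and IL11 was -0.012 with quantile normalization. Leaving out 1 library each, the log2 change ran from -0.13 to 0.12 for CXCL8, -0.0461 to 0.0912 for LIF (negative without A replicate 3), -0.0122 to 0.13 for IL1B (negative without G replicate 1), -0.20 to 0.0542 for CXCL2 (positive without A replicate 1, A replicate 3, G replicate 1 or G replicate 3), -0.23 to 0.0504 for CXCL1 (positive without G replicate 2) and -0.16 to 0.0486 for CCL20 (positive without A replicate 2). IL11, IL6 and IL1A kept their sign but moved by over 1.5 times: IL11 ran from 0.0087 (without A replicate 1) to 0.12 (without A replicate 2), IL6 from -0.15 (without G replicate 1) to -0.026 (without A replicate 2) and IL1A from 0.018 (without A replicate 1) to 0.12 (without A replicate 3). The median of the 4 tested members ran from -0.003 to 0.11. Over all genes, 14 calls became 1 without a filter, 5 with a filter of 0.1 FPKM, 9 with median-ratio factors, 6 with quantile normalization, 4 without a variance trend and 5 to 20 without 1 library (20 without A replicate 1, 5 without A replicate 2, A replicate 3 or G replicate 3, 6 without G replicate 2). Over all transcripts, 44 became 23 and 0 with pseudocounts of 0.1 and 0.01 (2161 at an unadjusted p under 0.05 with the latter), 7 without a filter, 25 and 2 with filters of 0.1 FPKM and of 1 FPKM in all libraries, and 7 to 37 without 1 library (7 without A replicate 3). Library weights called 1 C/EBP or AP-1 gene. The causes were not tested. With the replicate number as a block limma called 0 genes (2148 at an unadjusted p under 0.05) and 0 transcripts (1925). Same-numbered libraries correlated at 0.02 to 0.07, under the 0.1 set for pairing, but 5 of 6 libraries correlated best with their own number. With 3 libraries a group these values cannot decide whether the numbers pair libraries. The summed TNFAIP3 transcripts, and equal sums and median-ratio factors for transcripts, were chosen after seeing the data. Depth limits the 6 genes below 1 FPKM, with 0 to 50.3 read-pair equivalents per library.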
